A study of Mus musculus with 8 samples.

Results

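The genes described are 10 of the 55401 genes in a count table from embryonic mouse lung: the pappalysin genes Pappa and Pappa2, the stanniocalcin genes Stc1 and Stc2, the ligand gene Igf1, the receptor gene Igf1r, and the binding protein genes Igfbp2, Igfbp3, Igfbp4 and Igfbp5. They were chosen by name, with the mutant and control levels of Pappa2 in these libraries already known, so their differences between the groups are a description. Where a member is said to be called or not, that only places it under the rule applied to every gene and is no test of the member. RNA was sequenced from lung at E13.5, from 4 mutant libraries carrying Tbx4tetOcre and MyrfE6 and from 4 libraries labelled cre control. The labels do not say which cre transgene the controls carry, what MyrfE6 is, in which cells Tbx4tetOcre acts, the sex of the embryos, or whether a library holds 1 lung or several. Nothing in them ties the replicates of a group to separate litters, so standard errors and p-values measure the spread between these libraries, which may be technical in part.

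Insulin-like growth factors (IGFs) are secreted ligands that signal growth and survival through the receptor tyrosine kinase IGF1R. Outside the cell most IGF is held by IGF binding proteins. Pappalysins are secreted metalloproteases that cut binding proteins and so release the ligand: PAPP-A is best known for cutting IGFBP4, and PAPP-A2, the product of Pappa2, for cutting IGFBP3 and IGFBP5. Stanniocalcins bind pappalysins and inhibit them. Mice without Igf1r die at birth with underdeveloped lungs, so the receptor is needed for normal lung growth.

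Library totals ran from 17819285 to 48679134 counts in mutants and from 17799899 to 19032389 in controls. CPM are read counts scaled to the library total. Myrf, the gene named in the mutant label, measured 84.4 to 92.4 CPM in mutants and 107 to 120.5 CPM in controls. The quasi-likelihood test of edgeR called it lower in mutants (adjusted p = 0.000211). Its log2 fold change, mutant over control, was -0.37 (SE 0.044). Libraries also differed in sex-linked transcripts. Mutant replicates 1 and 2 held up to 0.596 CPM of Xist with 134 and 144 CPM of 4 Y-linked genes, whereas control replicates 2 and 3 held 869 and 863 CPM of Xist with at most 0.0562 CPM of the Y-linked genes. Both kinds of transcript were present in mutant replicates 3 and 4 and control replicates 1 and 4, a mixed subset of 4 libraries, chosen after the data were seen, whose values are given beside those of each member.

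Pappa2 lay at 48.0% to 58.5% of its control mean in the mutant libraries, the difference for which it was chosen. Under the rule applied to all 15788 genes tested (edgeR, adjusted p below 0.05), 1.49% were called, with 0.931% lower and 0.564% higher, and 1 of the 10 members, Pappa2, was among them. Since the choice of members used this comparison, nothing is read from that count. Pappa2 (ENSMUSG00000073530.11) occupies chromosome 1, bases 158711727 to 158980490 of GRCm38, minus strand. Its RefSeq promoter window, shown because Pappa2 is the member whose level differed, lies at chr1:158958126-158958425 on the minus strand (build GRCm38.p6), 5′ to 3′, with the 50 bases from the annotated transcript start in capitals.
Pappa2: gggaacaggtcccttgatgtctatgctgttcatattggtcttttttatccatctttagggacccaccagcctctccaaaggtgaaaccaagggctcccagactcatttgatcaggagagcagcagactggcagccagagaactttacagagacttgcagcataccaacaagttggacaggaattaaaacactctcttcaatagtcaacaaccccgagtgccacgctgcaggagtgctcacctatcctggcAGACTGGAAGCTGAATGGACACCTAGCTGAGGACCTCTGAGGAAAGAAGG
That window starts a transcript inside the gene span of the count table, and counts summed over exons do not show which start was used. The window holds 2 CpG pairs, against 6 to 48 in the 8 other windows found for the members and a median of 7 over 32851 RefSeq promoter windows. The letters CTGGCAC and CTGGTAC, which together spell the motif known for MYRF, were searched on both strands. Neither stands in any of the 9 windows found for 8 members, and 7.1% of all windows hold one of them. No window was found for Pappa or Stc1.

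Pappa2 measured 10.49, 11.97, 9.81 and 11.54 CPM in mutant replicates 1 to 4. In control replicates 1 to 4 it measured 18.74, 20.52, 22.20 and 20.35 CPM. The highest mutant library thus lay well below the lowest control. These levels rest on 201 to 584 raw counts per library. The means were 10.95 ± 0.982 CPM in mutants and 20.45 ± 1.41 CPM in controls (SD, n = 4 each). The log2 fold change fitted by edgeR was -0.89 (SE 0.0806), which is a level lower by 46.2%. Among the 147 genes called lower over the whole table, its fall ranked 23. In the mixed subset Pappa2 measured 9.81 and 11.54 CPM in mutants and 18.74 and 20.35 CPM in controls, a log2 fold change of -0.87 (SE 0.119), so the difference was about as large there. Leaving out any 1 library gave log2 fold changes between -0.94 and -0.84.

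**Figure D1:**
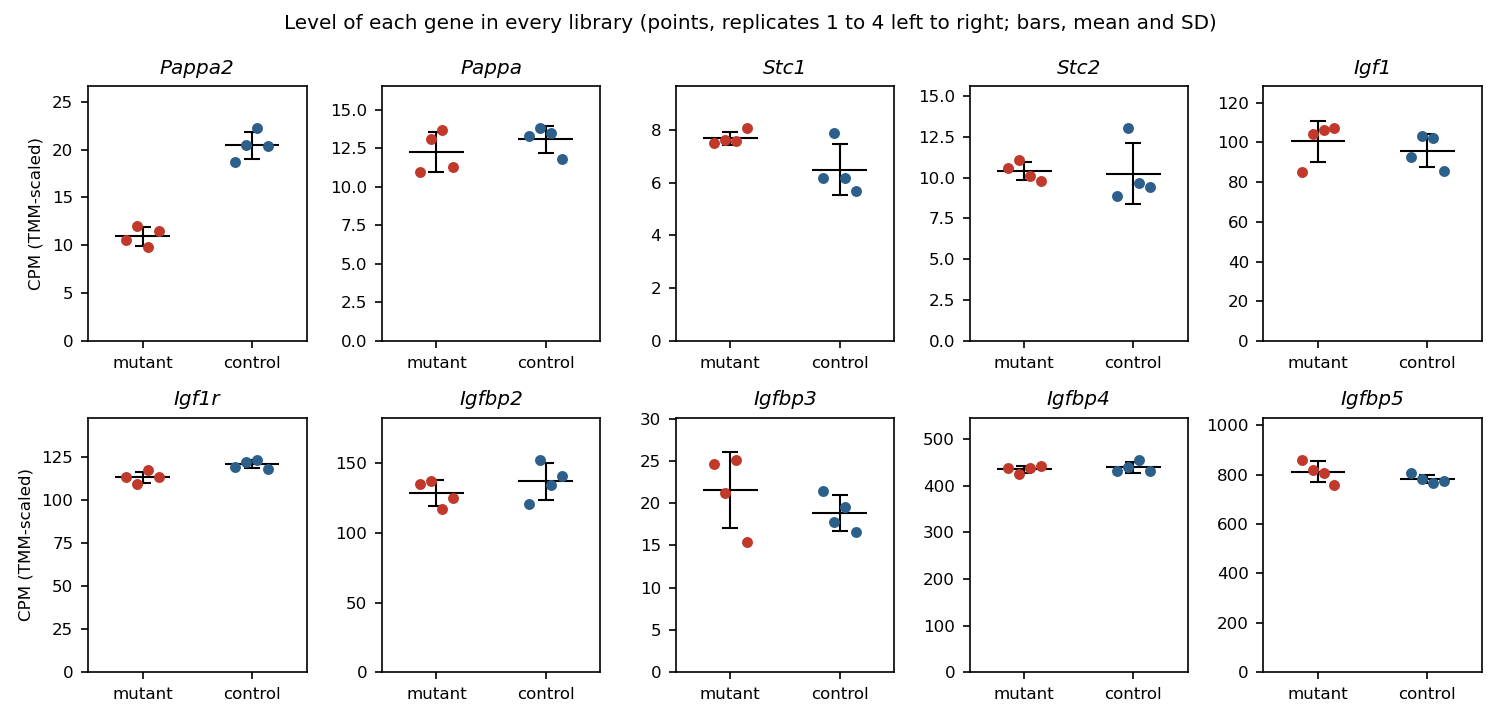
Level of each of the 10 genes in every library, in TMM-scaled CPM with each axis starting at 0; points are the 4 mutant (red) and 4 control (blue) libraries, horizontal lines are means and bars are SD. Pappa2 separates the groups widely, with mutants at 9.81 to 11.97 CPM and controls at 18.74 to 22.20 CPM, and Igf1r separates them narrowly, while the other 8 genes overlap.

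Pappa is the paralogue of Pappa2 and was not called. It measured 11.04, 13.12, 13.71 and 11.31 CPM in mutant replicates 1 to 4. The controls lay between 11.84 and 13.81 CPM, and the groups overlapped. The log2 fold change was -0.09 (SE 0.0874), from 201 to 640 raw counts, and 0.00 in the mixed subset (SE 0.131). Set per kilobase of exon, so that genes of different length can be compared, the ratio of Pappa2 to Pappa was 1.02, 0.977, 0.766 and 1.09 in mutant replicates 1 to 4 and 1.51, 1.59, 1.76 and 1.84 in control replicates 1 to 4. Pappa2 was therefore above Pappa in every control library, and the order of the pair varied among the mutants. The summed level of both pappalysins was 2.18 ± 0.136 CPM per kilobase in mutants and 3.18 ± 0.168 in controls (SD, n = 4 each). Pappa lies on chromosome 4 from 65124174 to 65357509.

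The genes of the pappalysin inhibitors overlapped between the groups. Stc1 measured 7.49, 7.62, 7.56 and 8.05 CPM in mutants. In controls it measured 6.18, 7.89, 6.16 and 5.69 CPM, so control replicate 2 lay inside the mutant range and the other 3 below it. Its log2 fold change was 0.24 (SE 0.108), or 0.40 in the mixed subset (SE 0.155), and was not called. Stc2, whose product binds PAPP-A covalently, measured 9.79 to 11.13 CPM in mutants and 8.87 to 12.97 CPM in controls, with a log2 fold change of 0.03 (SE 0.106), or 0.13 in the mixed subset (SE 0.133). Control replicate 2 had the highest level of both stanniocalcin genes among the controls. Per kilobase, the summed stanniocalcin level was 3.84 ± 0.0931 in mutants and 3.52 ± 0.582 in controls (SD, n = 4 each). Divided by the summed pappalysin level it gave ratios of 1.69 to 1.89 in mutants and 0.986 to 1.35 in controls, with Pappa2 part of the denominator.

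Neither the ligand gene nor the receptor gene was called. Igf1 measured 85.1, 104, 106 and 107 CPM in mutants and 92.4, 103, 102 and 85.8 CPM in controls, with a log2 fold change of 0.07 (SE 0.0862), which was 0.26 in the mixed subset (SE 0.0578). Mutant replicate 1 and control replicate 4 were the low libraries of their groups. Igf1r measured 113, 109, 117 and 113 CPM in mutants and 119, 122, 123 and 118 CPM in controls. Every mutant lay below every control, by a narrow margin, and the log2 fold change of -0.09 (SE 0.0354) came to -0.04 in the mixed subset (SE 0.0523). Groups did not overlap for 2 of the 10 members, Pappa2 and Igf1r, both lower in mutants, and for 7.37% of all genes tested (4.06% lower and 3.31% higher). Igf1 lies on chromosome 10 from 87858265 to 87937042 and Igf1r on chromosome 7 from 67952827 to 68233668.

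Of the binding proteins, 0 of the 4 genes were called, where 1.49% of all genes tested were, so nothing is read from that count. Igfbp5, a substrate of PAPP-A2, measured 859, 819, 808 and 756 CPM in mutants and 806, 784, 767 and 773 CPM in controls, with a log2 fold change of 0.05 (SE 0.0362), which turned to -0.01 in the mixed subset (SE 0.0477). Igfbp3, the other substrate and the main carrier of IGF in blood, measured 24.6, 21.2, 25.1 and 15.4 CPM in mutants and 21.4, 17.8, 19.6 and 16.6 CPM in controls. Mutant replicate 4 was below all controls and mutant replicates 1 and 3 above them, which left a log2 fold change of 0.20 with a wide error (SE 0.151). Without mutant replicate 4 it was 0.32 (SE 0.0884), and in the mixed subset 0.10 (SE 0.315). Igfbp4, whose product is the best-known target of PAPP-A, measured 425 to 442 CPM in mutants and 431 to 455 CPM in controls. Its log2 fold change was -0.01 (SE 0.0317), which at 1 SE spans a change of -3.1% to 1.25%. In the mixed subset it turned to 0.03 (SE 0.0438). Igfbp2, which is abundant in fetal tissues, measured 117 to 137 CPM in mutants and 120.2 to 152 CPM in controls (log2 fold change -0.08, SE 0.0729, and -0.10 in the mixed subset, SE 0.0728). The coefficient of variation was 1.68% in mutants and 2.63% in controls for Igfbp4, and 20.8% in mutants and 11.2% in controls for Igfbp3. Counting alone would give 6.05% for Igfbp3 at its lowest count, 273. Igfbp2 and Igfbp5 are neighbours on chromosome 1, 5457 bases apart and on opposite strands, and neither was called.

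**Figure D2:**
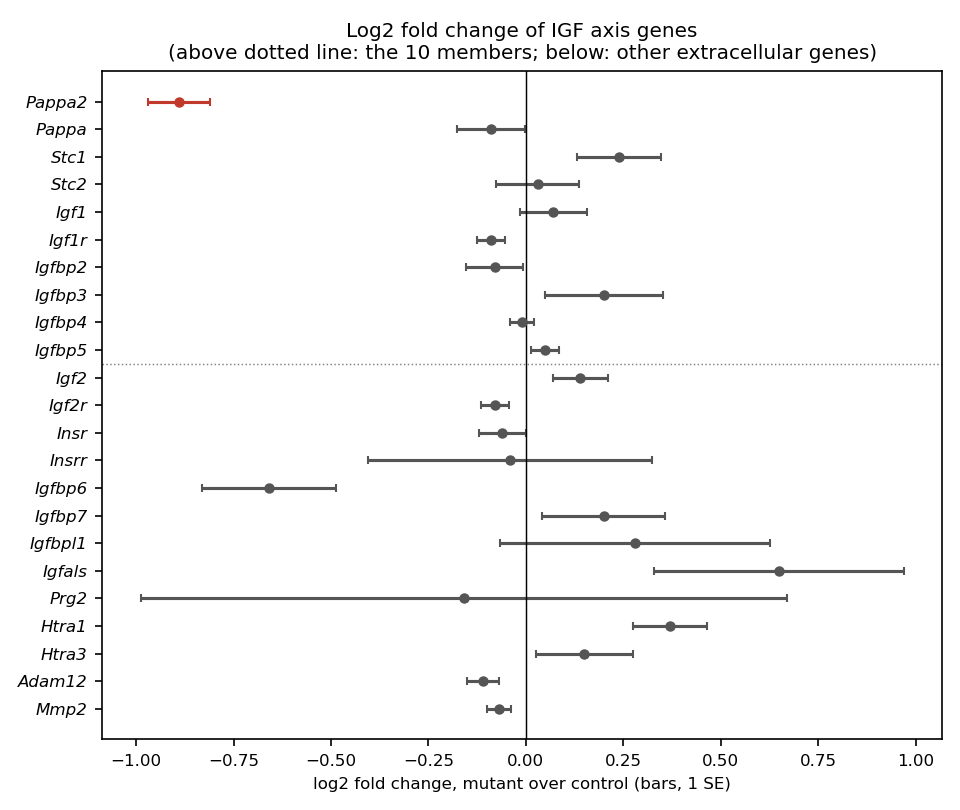
Log2 fold change, mutant over control, of the 10 members (above the dotted line) and of 13 further extracellular genes of the axis (below it); points are edgeR estimates and bars 1 SE, with the gene that passed an adjusted p of 0.05 in red. Pappa2 stands at -0.89, while the other 9 members lie between -0.09 and 0.24.

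Ordered by level per kilobase of exon, Igfbp5, Igfbp4 and Igfbp2 stood far above the pappalysin genes, and Igfbp3 stood above them by less. In mutants Igfbp5 averaged 135 ± 6.98 CPM per kilobase, Igfbp4 98.6 ± 1.65 and Igfbp2 69.6 ± 4.98 (SD, n = 4), without overlap between neighbours in that order. Igf1 followed at 10.2 ± 1.06, then Igfbp3 at 6.89 ± 1.44 and Igf1r at 6.72 ± 0.205, whose ranges overlapped. Stc2 at 2.01 ± 0.113 and Stc1 at 1.83 ± 0.0597 overlapped each other, as did Pappa at 1.11 ± 0.118 and Pappa2 at 1.06 ± 0.0942. In controls the first 4 places were the same, and Pappa2 stood seventh at 1.99 ± 0.139 CPM per kilobase, overlapping Stc2 at 1.98 ± 0.361. By its mean Pappa2 was thus seventh of the 10 genes in control lung, though its range of 1.82 to 2.16 also overlapped that of Stc1 (1.36 to 1.88). In mutant lung Pappa2 was last and could not be told from Pappa. The summed level of the 4 binding protein genes was 310.0 ± 10.4 CPM per kilobase in mutants and 309.9 ± 5.89 in controls, and Igfbp5 made up 43.5% ± 0.993 of it in mutants and 42.1% ± 1.45 in controls (SD, n = 4 each). The deposited exon length sums all annotated exons, so a gene that uses few of them in lung is understated on this scale.

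**Figure D3:**
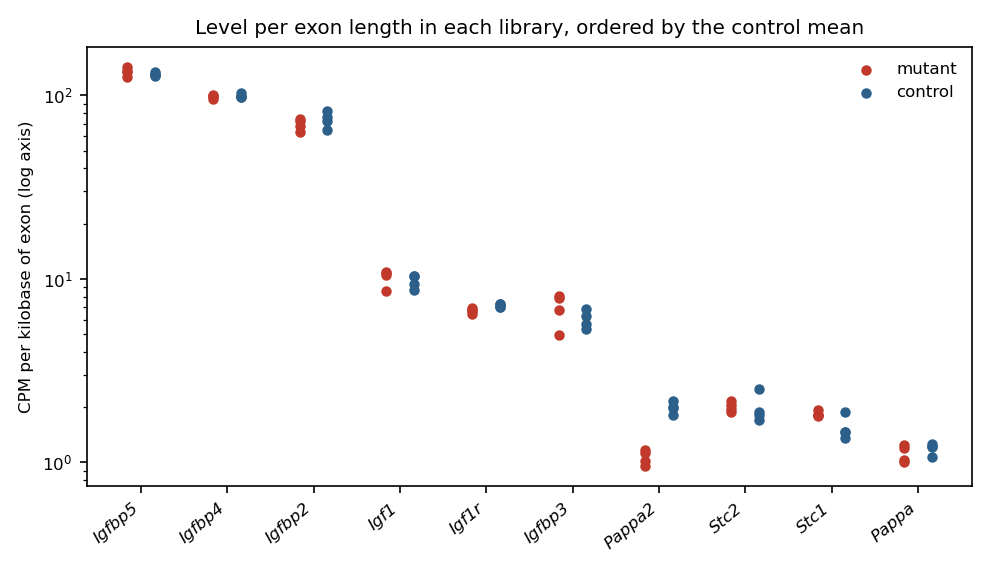
Level in CPM per kilobase of exon on a log axis, for each of the 4 mutant (red, left) and 4 control (blue, right) libraries, with genes ordered by the control mean. Igfbp5, Igfbp4 and Igfbp2 lie between 63.3 and 143, and Pappa2 lies at 0.953 to 1.16 in mutants against 1.82 to 2.16 in controls.

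The other genes of the pathway were read from 5 lists of ligands, receptors, further binding proteins and proteases, RNA-binding regulators, growth hormone signalling, intracellular signalling and genes that FOXO factors induce. Of 62 listed genes 58 were tested, and 0 passed in edgeR over all genes, 0 with DESeq2 and 0 with limma-voom; 9 had an unadjusted p below 0.05. Over all genes tested 13.9% had an unadjusted p below 0.05. Some genes are shared between lists, so the counts given per list add up to more than those of the 62 genes. The median log2 fold change of the 58 genes was -0.02, with 25 positive and 33 negative, and the median over all genes was 6.5e-05. The 4 untested genes were Ins2, with 0 counts in every library, and Igfbp1, Irs4 and Trim63, with at most 8 counts in any library.

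Of 13 tested extracellular genes, 0 passed in edgeR, DESeq2 or limma-voom and 5 had an unadjusted p below 0.05. Mmp2, a matrix metalloprotease, stood at -0.07 on the log2 fold change scale (SE 0.0306, adjusted p = 0.281, edgeR), and Igf2r, which takes up IGF2 for breakdown, had -0.08 (SE 0.0361, adjusted p = 0.335, edgeR). Igfbp6, Htra1 and Igf2 were named after their values were seen. Igfbp6, a binding protein that prefers IGF2, measured 2.76, 1.93, 1.90 and 2.53 CPM in mutants and 2.96, 4.06, 4.01 and 3.21 CPM in controls, from 39 to 94 raw counts. The groups did not overlap, and the log2 fold change of -0.66 (SE 0.172) missed the threshold (adjusted p = 0.0588, edgeR; 0.0142 to 0.661 over its alternatives). Htra1, a secreted serine protease that can cut binding proteins, measured 9.86, 11.1, 11.6 and 9.68 CPM in mutants and 7.50, 8.79, 8.92 and 7.67 CPM in controls. It too did not overlap and missed the threshold (log2 fold change 0.37, SE 0.0946, adjusted p = 0.0572, edgeR; 0.0121 to 0.228 over its alternatives). Igf2, the main fetal ligand, measured 193 to 236 CPM in mutants and 172 to 208 CPM in controls (log2 fold change 0.14, SE 0.0698, adjusted p = 0.403, edgeR; 0.00778 to 0.602 over its alternatives). Over those alternatives its log2 fold change ran from 0.09, without mutant replicate 4, to 0.30, in the mixed subset.

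No gene of the remaining lists passed. Of 27 tested intracellular genes 0 passed with edgeR, DESeq2 or limma-voom, and 2 had an unadjusted p below 0.05. Grb10, an adaptor that restrains the receptor, measured 1437 ± 93.3 CPM in mutants and 1499.6 ± 65.0 CPM in controls, and Akt1, a kinase of the pathway, measured 490.2 ± 4.55 CPM in mutants and 496 ± 16.4 CPM in controls (SD, n = 4 each). Of 11 tested genes induced by FOXO factors, which IGF signalling holds out of the nucleus, 0 passed with any of the 3 tools and 2 had an unadjusted p below 0.05. Txnip and Ccng2 in that list had log2 fold changes of 0.10 (SE 0.058) and 0.06 (SE 0.0524). Of 4 genes in the RNA-binding list 0 passed with any of the 3 tools and 1, H19, had an unadjusted p below 0.05. H19, a noncoding RNA next to Igf2, had a log2 fold change of 0.08 (SE 0.0288), and Igf2bp2, which binds Igf2 messenger RNA, had -0.05 (SE 0.0321). Of 5 growth hormone genes 0 passed with any of the 3 tools and 0 had an unadjusted p below 0.05. Ghr, the receptor that drives Igf1 in liver, had -0.06 (SE 0.041) and the transcription factor gene Stat5b 0.01 (SE 0.0452).

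Some markers of mesothelium, the cell layer on the lung surface, were lower in mutants, as Pappa2 was. Of 8 listed markers 4 fell in edgeR over all genes and 4 did not pass, while DESeq2 and limma-voom each called 5; their summed level was 230.5 to 263 CPM in mutants and 299 to 315 CPM in controls, and none of the 8 was at or under 3 counts in every library. Wt1, a transcription factor of mesothelium, stood at -0.70 on the log2 fold change scale (SE 0.0898, adjusted p = 0.000424, edgeR), and the surface gene Upk3b at -0.63 (SE 0.0465, adjusted p = 1.08e-06, edgeR). Gpm6a, a membrane glycoprotein gene, had -0.80 (SE 0.1, adjusted p = 0.000366, edgeR), and Lrrn4 -0.39 (SE 0.0837, adjusted p = 0.0258, edgeR), and both calls were lost in the mixed subset, at log2 fold changes of -0.62 for Gpm6a and -0.43 for Lrrn4. The call of Lrrn4 was also lost with a Y-linked covariate and without mutant replicate 2 or control replicate 1, 2 or 3 (log2 fold changes -0.42 to -0.34). Of the 4 markers that did not pass, Aldh1a2 stood at -0.41 (SE 0.0963, adjusted p = 0.0871, edgeR) and Nkain4 at -0.08 (SE 0.0486), while Krt19 at 0.08 (SE 0.0616) and Msln at 0.19 (SE 0.312) were on the positive side. The ratio of Pappa2 to Gpm6a, in CPM, was 1.31 to 1.99 in mutants and 1.76 to 1.97 in controls. The ratio to Wt1 was 0.737 to 1.08 in mutants and 0.906 to 1.17 in controls, and the ratio to Upk3b was 0.171 to 0.218 in mutants and 0.219 to 0.238 in controls. The ratios to Gpm6a and Wt1 thus overlapped between the groups, and the ratio to Upk3b left a narrow gap. Gpm6a, Wt1 and Upk3b were the listed markers that fell most, and ratios to the other listed markers were not taken. As a percent of the control mean, the mutant libraries held Pappa2 at 48.0% to 58.5%. Gpm6a at 53.4% to 66.7% and Wt1 at 54.6% to 72.1% overlapped that range, and Upk3b lay just above it at 60.0% to 69.3%. The remaining markers lay higher, with Lrrn4 at 69.6% to 86.1% and Aldh1a2 at 68.6% to 91.2%. Nkain4 lay at 92.7% to 98.8%, Krt19 at 99.7% to 112% and Msln at 70.1% to 169%. The part of the mesothelial markers in the level of Pappa2 was not tested, and in bulk lung RNA fewer cells of a type and less RNA per cell cannot be told apart. Neural crest and neuron markers also separated the groups, at 41.1 to 45.6 CPM in mutants and 29.3 to 33.8 CPM in controls with 2 of 6 called higher by edgeR, 3 by DESeq2 and 1 by limma-voom, and their part was not tested either. The summed levels of the other 10 marker lists overlapped between the groups, and 1 lung epithelium marker, 1 endothelium marker and 1 erythroid marker were called higher by edgeR and 1 mesenchyme marker and 1 immune marker lower. Limma-voom called 0 endothelium markers, and DESeq2 also called 1 smooth muscle and 1 heart muscle marker. Of their markers, Matn1 and Serpina1a had at most 3 counts in any library.

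**Figure D4:**
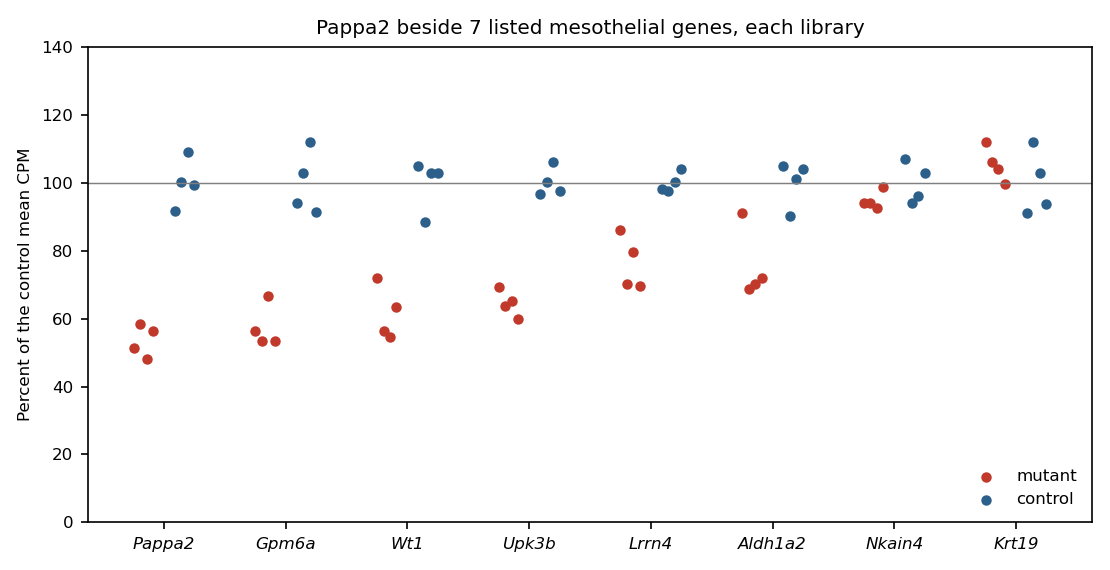
Level of Pappa2 and of 7 listed mesothelial genes in each mutant (red, left) and control (blue, right) library, as a percent of the gene's control mean. Pappa2 lies at 48.0% to 58.5% in mutants, Gpm6a at 53.4% to 66.7% and Wt1 at 54.6% to 72.1%, while Nkain4 and Krt19 overlap the controls; Msln, the other listed gene, at 0.507 to 1.22 CPM in mutants and 0.564 to 0.96 CPM in controls, is not drawn.

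Ranked by correlation of log2 CPM with Pappa2 over the 8 libraries, the genes most like it among 12375 were Col4a4, Ptpn13, Hs6st2, Skp2 and Mrpl24. Col4a4, a collagen IV chain, had Pearson's r of 0.985 and Spearman's rho of 0.929, with r at 0.994 without mutant replicate 3 and control replicate 3. The other 4 had r of 0.97 to 0.973. Col4a4 and Hs6st2 were called lower by edgeR, at log2 fold changes of -0.96 and -0.3. Ptpn13, Skp2 and Mrpl24 were not called, and their log2 fold changes were small, at -0.12, -0.1 and -0.07. Such a ranking follows the gap between the groups and each gene was picked for its value, so it is given with no p and as a description. Upk3b ranked ninth (r = 0.955), the highest of the 8 listed mesothelial markers. For the others r was 0.919 for Gpm6a, 0.911 for Wt1, 0.826 for Lrrn4, 0.788 for Aldh1a2 and 0.484 for Nkain4. It was negative for Msln (-0.238) and Krt19 (-0.336). The closest other member of the axis was Igf1r (r = 0.76). Once group means were subtracted, r with Pappa2 was -0.0561 for Upk3b, -0.0433 for Wt1 and -0.228 for Gpm6a over the 8 libraries. For the other markers it was -0.567 for Lrrn4, -0.304 for Aldh1a2, -0.262 for Msln, -0.224 for Nkain4 and 0.209 for Krt19. The 5 leading genes after that step were Haspin, Ube2a, Pomt1, Cybb and Flot1 (r of 0.925 to 0.953). Within groups the level of Pappa2 varied by 8.97% in mutants and 6.9% in controls (coefficient of variation). Counting alone gives 7.05% at its lowest count, 201 in mutant replicate 3. The controls held 355 to 393 counts, where counting alone gives less.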

How the data were processed

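RNA-seq counts of read pairs per gene were deposited as 1 table of whole numbers, not normalized. Per the file headers the authors counted with featureCounts 1.6.4 (paired reads, reverse strand, exons summed per gene) against GENCODE vM25. STAR, DESeq2 and GRCm38 (mm10) are named per the submitters' processing notes. Exon lengths came from the same deposited table. Gene symbols matched 55141 of 55401 gene IDs.

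edgeR 4.0.16 (R 4.3.3) fitted all 8 libraries with TMM scaling, its expression filter (15788 genes left) and robust dispersions, without covariates. Mutant over control was tested by quasi-likelihood, two-sided, with Benjamini-Hochberg adjustment over those genes and a threshold of 0.05. CPM values are TMM-scaled, except those of Xist and the 4 Y-linked genes. The fit was tested on simulated data. A floor of 3 counts equals 0.0616 to 0.169 CPM across libraries and covers counting error only. Replicates of a group differed by more than counting noise (chi-square per degree of freedom 2.92 to 8.91). DESeq2 1.42.0 and limma-voom (limma 3.58.1) were among the alternatives.

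Members, lists and tests were chosen with earlier results of these data known. The text names the members, Myrf, the 2 genes of each pathway list with the highest level per length, and the 8 listed mesothelial markers. It also names the 5 genes most correlated with Pappa2 before and after group means were subtracted. Igfbp6, Htra1 and Igf2 were added after their values were seen. Promoter windows are RefSeq's, 250 bases before and 50 after a start.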

Additional observations from a re-analysis of the deposited data

Results flagged for a closer look

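Among 138 groups of 4 libraries, 6 held a library set apart from the other 3 by a gap wide against the range; chance gives about 1 group in 20. Igf1 was at 85.1 CPM in mutant replicate 1, against 104 to 107 CPM in the other mutants. Jak2 was at 23.6 CPM in mutant replicate 4, against 28.3 to 29.2 CPM in the other mutants. Htra3 was at 13.6 CPM in control replicate 1, against 16.4 to 16.7 CPM in the other controls. Stat5b was at 54.9 CPM in control replicate 2, against 50.6 to 50.9 CPM in the other controls. Irs1 was at 134 CPM in control replicate 3, against 125 to 126 CPM in the other controls. Pdpk1 was at 38.2 CPM in control replicate 4, against 44.1 to 45.2 CPM in the other controls. Without mutant replicate 1 the log2 fold change of Igf1 was 0.14 (SE 0.0552), against 0.07 in all libraries.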

How the results depend on the processing

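Over 16 alternatives the log2 fold change of Pappa2, given as a description, ran from -0.94 to -0.84. The sign held in all 16 for Stc1, Igf1, Igf1r, Igfbp2 and Igfbp3, in 15 for Pappa, 14 for Igfbp5, 13 for Stc2 and 11 for Igfbp4. The 236 genes called over the whole table became 361 with DESeq2, 791 with no low-count filter, 142 without robust estimation, 68 with the Y-linked level as a covariate and 87 in the mixed subset of 4 libraries, an alternative chosen after seeing the data. Size factors by relative log expression gave 238 and limma-voom 205. Leaving out 1 library gave 96 to 479: 118 without mutant replicate 2, 479 without mutant replicate 4, 100 without control replicate 1, 121 without control replicate 2 and 96 without control replicate 3. Of the other pathway genes, 0 were called, against 3 with no low-count filter (Igf2, Igfbp6 and Htra1), and 0 to 2 on leaving out 1 library (Igfbp6 and Htra1 without mutant replicate 4). With a replicate block, 541 genes and 2 other pathway genes, Htra1 among them, were called. Nothing in the labels pairs the numbers: same-numbered mutants and controls deviated together with correlations of 0.125, 0.146, 0.286 and 0.0443 over 13163 genes, and the best-matched controls of mutants 1 to 4 were 4, 2, 3 and 3. The cause of these shifts was not tested.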

Other observations

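Genes beside the members were read for position. Astn2, the closest tested gene after Pappa at 23293 bases, was higher in mutants (log2 fold change 0.65, SE 0.105, adjusted p = 0.00417, edgeR), while its paralogue Astn1, 19945 bases from Pappa2, stood at 0.11 (SE 0.162, adjusted p = 0.828, edgeR). Of the 3 tested genes within 1000000 bases of Pappa2 on either side, 0 were called. Cop1, on the other flank, stood at 0.03 (SE 0.0449, adjusted p = 0.848, edgeR). These genes were chosen after their values were seen.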
